A study of Mus musculus with 2 samples.

Results

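Dendritic cells of the heart valve were examined in Drop-seq libraries of aortic and mitral valves of C57BL/6J mice, 1 library from postnatal day 7 (P7) and 1 from postnatal day 30 (P30). Drop-seq pairs single cells with barcoded beads in droplets and tags each captured transcript with a unique molecular identifier (UMI), so that a barcode stands for about 1 cell and a UMI for 1 molecule. A barcode was taken as a dendritic cell when it met 4 limits. Under 1% of its UMIs came from the matrix genes Col1a1, Col1a2, Col3a1 and Dcn, it held at least 3 UMIs of the MHC class II genes H2-Aa, H2-Ab1 and H2-Eb1, and it held at most 1 UMI of the complement genes C1qa, C1qb and C1qc. It also held at least 1 UMI of 9 dendritic cell genes, Xcr1, Flt3, Cd209a, Ccr7, Clec9a, Ifi205, Plbd1, Cytip and Ccl17. These limits found 60 of 4473 barcodes, 7 of 961 at P7 and 53 of 3512 at P30. The labels name the strain and no genotype or treatment beyond it, and they do not say how many mice were pooled for a library. With 1 library per age no test was possible, cells of a library are not replicates, and every interval below is a 95% interval that covers counting error only.

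Dendritic cells take up antigen in tissues, carry it to lymph nodes and present it to T cells on MHC molecules. Conventional dendritic cells come in 2 main types. Type 1 cells (cDC1), which depend on the transcription factors Irf8 and Batf3, bear the chemokine receptor Xcr1 and the dead-cell receptor Clec9a and present antigen from dead cells to CD8 T cells. Type 2 cells (cDC2) present to CD4 T cells and share genes such as Cd209a and Mgl2, both C-type lectins, with dendritic cells that derive from monocytes. Mature cells of either type switch on Ccr7, the chemokine receptor that leads them into lymph vessels.

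The class II genes that define these cells share a promoter layout known from textbooks, in which a Y box, an inverted CCAAT motif bound by NF-Y, lies close to the start of transcription. The 120 bases before the RefSeq start sites (assembly GRCm38.p6, mouse chromosome 17) are shown for H2-Aa and H2-Eb1, which the selection used, for H2-DMb2 and H2-Ob, the class II pathway genes called higher than in macrophages below, and for H2-DMb1, the close copy of H2-DMb2. Each runs 5′ to 3′ in the direction of its gene, and capitals mark the letters TGATTGG.
H2-Aa, chr17:34287824-34287943, minus strand: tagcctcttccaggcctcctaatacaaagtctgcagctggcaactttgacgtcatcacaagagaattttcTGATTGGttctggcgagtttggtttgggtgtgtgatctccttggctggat
H2-Eb1, chr17:34305747-34305866, plus strand: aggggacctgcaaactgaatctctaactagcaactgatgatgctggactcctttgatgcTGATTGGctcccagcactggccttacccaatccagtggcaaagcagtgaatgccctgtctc
H2-DMb1, chr17:34153071-34153190, plus strand: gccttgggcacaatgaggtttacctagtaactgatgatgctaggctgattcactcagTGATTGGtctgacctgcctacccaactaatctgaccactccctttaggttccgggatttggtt
H2-DMb2, chr17:34145129-34145248, plus strand: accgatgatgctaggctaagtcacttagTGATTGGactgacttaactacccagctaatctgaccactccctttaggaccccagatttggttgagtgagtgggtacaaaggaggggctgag
H2-Ob, chr17:34238785-34238904, plus strand: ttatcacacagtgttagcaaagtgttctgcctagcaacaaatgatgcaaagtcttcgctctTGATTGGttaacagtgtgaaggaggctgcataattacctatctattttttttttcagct
The motif began 50 bases before the start of H2-Aa, 61 before H2-Eb1, 63 before H2-DMb1, 92 before H2-DMb2 and 59 before H2-Ob. Of 11 class II pathway genes searched (the H2 genes, Cd74 and Ciita), 8 matched the RefSeq promoter table, and 7 of these 8 held TGATTGG or its reverse complement CCAATCA within 120 bases of the start, against 6.06% of all 27025 genes in the table. None of 7 other genes of the class II list that matched, such as the cathepsins, held it within 250 bases. A match describes the letters only.

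Members were chosen by their own UMI counts of the matrix, class II, C1q and dendritic cell genes, so these genes are given as a description. Among barcodes with few matrix UMIs and class II genes, dendritic cells made up 7 of 14 at P7 and 53 of 196 at P30 (27.0%, 21.0 to 33.8%). Most of the others were macrophage barcodes with at least 3 C1q UMIs, 6 at P7 and 121 at P30, which serve as the comparison throughout. The C1q limit fell in a sparsely filled gap: 4 P30 members held 1 C1q UMI, and 1 further P30 barcode with 2 C1q UMIs would otherwise have been a member. At the class II limit, 5 P30 and 2 P7 barcodes missed membership with 1 or 2 class II UMIs, while no P30 member had fewer than 6. At the matrix limit, 6 P30 barcodes with 1% to 2% matrix UMIs would otherwise have qualified. A single P30 member rested on 1 dendritic cell UMI, and 20 P30 barcodes and 1 P7 barcode with class II genes and low C1q held none.

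Genes outside the selection were used to check the label, and the 2 ages differed in how they met it. The cDC1 factor Batf3 had 28 UMIs in 20 of 53 P30 members, Wdfy4, which cross-presentation needs, 27 UMIs in 19, and Zbtb46, a factor of conventional dendritic cells, 4 UMIs in 3. Csf1r, the receptor that macrophages need, had 3 UMIs in the P30 members and 158 in 121 macrophage barcodes. At P7 the cDC1 and mature lists gave the label less ground than at P30, while the cDC2 list was below macrophages at both ages. Summed over the 53 P30 members, cDC1 genes were at 4.39 UMIs per 1000, cDC2 genes at 2.62 and mature genes at 7.54. The P30 macrophages were at 1.31, 4.23 and 4.82, though the mature medians per barcode were 4.66 in members and 4.69 in macrophages. Summed over the 7 members, cDC1 genes were at 1.64 UMIs per 1000, cDC2 genes at 2.96 and mature genes at 2.55, each below the 6 P7 macrophages at 1.99, 5.55 and 3.36. Genes shared by dendritic cells were at 8.17 per 1000 in P7 members and 3.41 in P7 macrophages, but at 8.49 in P30 macrophages. Of the 2 shared genes measured at P7, only Cd74, the class II invariant chain, was called higher. The selection used class II genes, with medians of 53 UMIs in P7 members and 9.5 in P7 macrophages. Macrophage genes were at 0.255 per 1000 in P7 members and 24.2 in P7 macrophages. The C1q limits formed the groups at both ages, so macrophage genes, Csf1r among them, are no check of the label. Of the defining markers of other cells, the 53 P30 members held 4 UMIs of 13 B cell markers, 6 of 20 T and NK cell markers, 3 of 11 endothelial markers, 4 of 9 mural markers and 0 of 6 melanocyte markers. Other lists were not near 0. Neutrophil markers had 42 UMIs in members, 40 of them Il1r2 with 11 of 13 genes at 0, and 8 in the 121 macrophages. Plasmacytoid dendritic cell markers had 52 UMIs with 9 of 14 genes at 0, erythroid markers 84 and interstitial markers 559, or 0.399, 0.645 and 4.29 per 1000 against 0.629, 0.791 and 2.91 in macrophages. A member at P7 with 861 UMIs stood apart: it held 8 UMIs of B cell markers and 4 class II UMIs beside 4 Ccr7 UMIs and 1 Cd209a UMI (B cells also make class II and Ccr7). At P30, 2 members exceeded 1% of UMIs from macrophage genes, with 82 of 7681 UMIs in the deepest and 38 of 3275 in the other. Counts of called genes were repeated without these barcodes.

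The members held a median of 2133 UMIs at P7 (861 to 5184) and 2104 at P30 (720 to 7681), for sums of 19576 and 130187 UMIs. No barcode was shared between the libraries. A pair of P7 members with 1504 and 1429 UMIs had barcodes 1 deleted base apart and may come from 1 bead, and 3 of 7 P7 and 4 of 53 P30 members had a barcode ending in N. The whole libraries differed in the share of the mitochondrial transcript mt-Rnr2, 0.420% of UMIs at P7 and 2.83% at P30. Age and library cannot be told apart. Levels are CPM, the counts of a gene per 1000000 UMIs, both summed over the barcodes of a group. Levels are compared between groups for 1 gene at a time, not between genes. A gene was measured with at least 10 UMIs in the 2 groups together, and it is called higher or lower where the groups were at least 2-fold apart and the interval of the ratio excluded equal levels. A gene with no UMI in a group was set at 3 UMIs there, so its log2 ratio is a bound. In CPM this bound is higher in the group with fewer UMIs. Genes absent from that group need a higher level in the other to be called. Where depths differ, counts of higher and lower genes are therefore not on equal terms.

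The members were split by Xcr1, Cd209a and Ccr7, which the selection also used, so the split is a description. At P30 Xcr1 alone was carried by 22 of 53 members (41.5%, 28.1 to 55.9%), Cd209a alone by 8 (15.1%, 6.75 to 27.6%) and Ccr7 alone by 7 (13.2%, 5.48 to 25.3%). Another 3 carried a pair of them, Cd209a with Ccr7 in 2 and Xcr1 with Ccr7 in 1, and 13 carried none. Xcr1 and Cd209a were in no barcode together, while 2 of 10 Cd209a carriers held Ccr7, a share near the 18.9% of all members that held it. At P7 the 7 members held 1 Xcr1 carrier, 1 Cd209a carrier, 1 with Cd209a and Ccr7, which is the member with B cell markers, and 4 with none. In all, 23 P30 members had an Xcr1 UMI (43.4%), against 0.826% of macrophage barcodes (median 2160 UMIs) and 1.16% of interstitial barcodes (at least 1% matrix UMIs, median 2546.5 UMIs). A Cd209a UMI was in 18.9% of members, 0% of macrophage barcodes and 0.0703% of interstitial barcodes, and a Ccr7 UMI in 18.9%, 0.826% and 0%. Thinned to 500 UMIs per barcode the shares were 16.4% for Xcr1, 9.12% for Cd209a and 10.8% for Ccr7, so the number of members seen as carriers depends on depth. Xcr1 lies on chromosome 9 (123852315 to 123862029), Cd209a on chromosome 8 (3743397 to 3748984) and Ccr7 on chromosome 11 (99144196 to 99155077), all protein coding on the minus strand of GRCm38 in GENCODE M21.

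Of the other genes of the selection, some were unequal between P30 carriers and some were found in most of them. Ifi205, an interferon-inducible gene, was in 22 of the 23 Xcr1 carriers, 0 of 10 Cd209a carriers and 4 of 10 Ccr7 carriers at P30. Over all P30 members it was in 62.3%, and the P7 carrier of Cd209a alone held 8 UMIs of it. The counts that follow are also from P30. Clec9a was in 6 of 23 Xcr1 carriers and 0 of 10 Cd209a carriers. Flt3, the receptor for the growth factor of dendritic cells, was in 6 of 23 and in none of the Cd209a or Ccr7 carriers. Over all P30 members Clec9a was in 17.0% and Flt3 in 15.1%, so 0 of 10 carriers says little. Carriers of Cd209a alone were also shallower, with a median of 1649.5 UMIs against 2398.5 for Xcr1 alone. Plbd1, a lysosomal lipase-like gene, was in 22 of 23 Xcr1, 6 of 10 Cd209a and 5 of 10 Ccr7 carriers, and Cytip, which controls dendritic cell adhesion, in 18 of 23, 7 of 10 and 9 of 10. Ccl17, a chemokine for T cells, was in 4 of 10 Ccr7 carriers, 6 of 23 Xcr1 carriers and 1 of 10 Cd209a carriers. Ifi205, Plbd1 and Cytip were less specific than the receptors, with a UMI in 38.0%, 28.1% and 24.8% of P30 macrophage barcodes.

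Lists of cDC1 and cDC2 genes, with the genes of the selection taken out, were counted in each barcode. Per 1000 UMIs, Xcr1 carriers held 1.31 to 11.4 UMIs of 20 cDC1 genes (median 5.54) and 0 to 4.30 of 23 cDC2 and monocyte-derived genes (median 0.966). Cd209a carriers held 0.468 to 3.40 of the cDC1 genes (median 1.44) and 1.96 to 9.72 of the cDC2 genes (median 5.86). The cDC1 genes outnumbered the cDC2 genes in 21 of 22 Xcr1 carriers, and the cDC2 genes led in 8 of 8 Cd209a carriers. Members with none of the 3 genes fell on both sides, 8 with more cDC1 and 5 with more cDC2 UMIs. Ccr7 carriers leaned to cDC2 genes in 5 and to cDC1 genes in 2. At P7 the Xcr1 carrier held 10 cDC1 UMIs and 1 cDC2 UMI. The only P7 carrier of Cd209a alone lay on the other side from those of P30, with 13 cDC1 and 8 cDC2 UMIs, and a member with none of the 3 genes held 31 cDC2 UMIs, among the highest shares of either age at 8.17 per 1000.

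**Figure D1:**
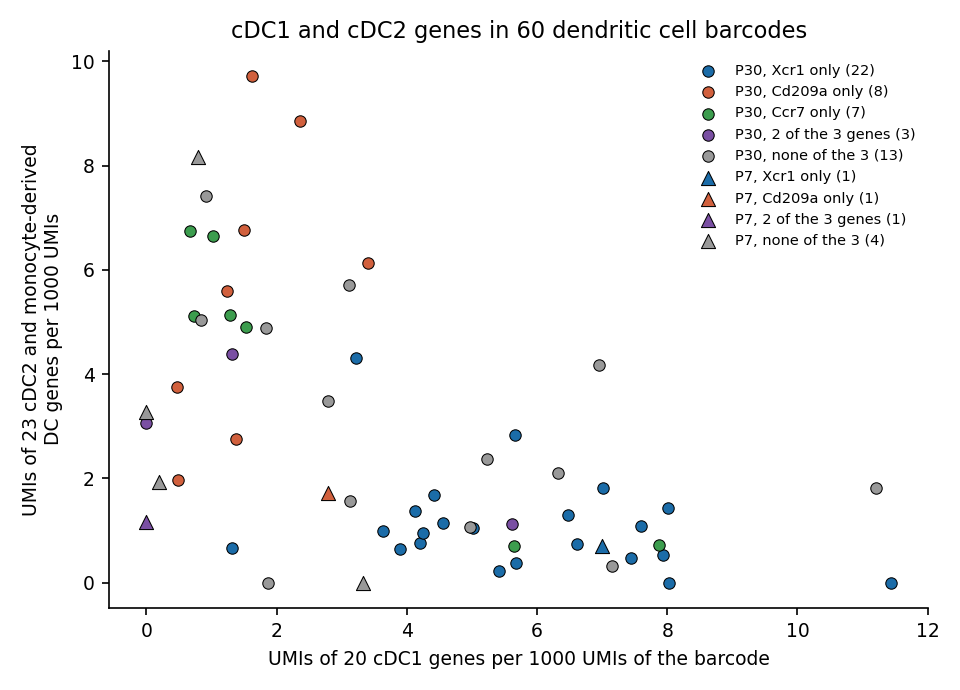
UMIs of 20 cDC1 genes (x axis) against UMIs of 23 cDC2 and monocyte-derived genes (y axis), each per 1000 UMIs of the barcode, for 60 dendritic cell barcodes, with colour for the carried gene, circles for P30 and triangles for P7. Xcr1 carriers lie along the x axis with a median of 5.54 cDC1 UMIs, and the 8 Cd209a carriers lie at 3.40 or fewer.

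Between Xcr1 and Cd209a carriers at P30, 30 of 1192 measured genes were called higher in Xcr1 carriers (2.52%) and 57 lower (4.78%). Xcr1 carriers held more Irf8, with 48 UMIs in 16 of 22 barcodes against 1 UMI in 8 barcodes (log2 ratio 3.43, 0.89 to 8.77). They also held more Cst3, the secreted protease inhibitor cystatin C, at 35021 against 8325 CPM (log2 ratio 2.07, 1.80 to 2.36). Cst3 counts per barcode ran from 5 to 224 in Xcr1 carriers and from 3 to 43 in Cd209a carriers, so the groups overlapped. Mnda, an interferon-inducible gene, is a close copy of the selection gene Ifi205 and may share reads with it, so it may not be independent of the selection. It had 76 UMIs in 21 of 22 against 2 UMIs in 2 of 8. Mpeg1, which codes for the pore protein perforin-2, had 54 UMIs in 19 against 1. Of 12 measured cDC1 genes, Irf8 and Ppt1, a lysosomal thioesterase, were called higher and none lower, and the median log2 ratio was 1.09 against −0.03 over all genes. The other 10 missed the call. Of these Cd24a had 20 UMIs, Sept3 18 and Wdfy4 17, against 0 in the Cd209a carriers. With their 13573 UMIs, a count of 0 was set at 3 UMIs, or 221 CPM, against 49.8 CPM in Xcr1 carriers. The 30 and 57 calls were therefore not made on equal terms. The ranked list of higher genes also held Ankrd11, Klf6, Ptma, Psap, Lmna, Sod1, Cd52 and Dusp2, and Tuba1a and Ncoa7, which were no longer called without the deepest barcode of each group (log2 ratios 0.77 and 0.99).

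Among the 57 genes higher in Cd209a carriers were 5 of the cDC2 list. S100a4, a calcium-binding protein, had 18 UMIs in 6 of 8 Cd209a carriers and 0 in 22 Xcr1 carriers, and S100a6 18 UMIs in 6 against 2 in 2. Cybb, the catalytic subunit of the phagocyte oxidase, had 10 UMIs in 4 barcodes against 0, and Fcgr2b, the inhibitory receptor for antibody, 10 UMIs in 4 against 2 in 2. S100a4 and Cybb met the minimum of 10 UMIs through the Cd209a carriers alone. Of 6 measured genes of the cDC2 list, 5 were called lower in Xcr1 carriers and none higher: Klf4, Mgl2, Tnip3, Fcer1g and Lgals3, with a median log2 ratio of −2.44. Zeb2, a factor of cDC2 and monocytes, had 7 UMIs in 3 Cd209a carriers and 3 UMIs in 2 Xcr1 carriers (log2 ratio −3.37, −5.96 to −1.24). Ctss, the protease that trims the class II invariant chain, was 1768 CPM in Cd209a carriers and 498 CPM in Xcr1 carriers (log2 ratio −1.83, −2.65 to −0.99). Mrc1, the mannose receptor of macrophages, had 10 UMIs in 2 Cd209a carriers, 9 of them in a single barcode, and 0 in Xcr1 carriers. Macrophage genes as a list were at 2.14 UMIs per 1000 in Cd209a carriers and 0.199 in Xcr1 carriers, against 16.3 in macrophages, with at least 2 UMIs in 7 of 8 and 3 of 22 barcodes. Their part in the differences between these carriers was not tested. The ranked list of lower genes also held Ms4a6c, Ccnd2, Ifi30, Fh1, Mt1, Dbnl and Olfm1. Cd74, the invariant chain, was 7901 CPM in Xcr1 and 11199 CPM in Cd209a carriers, less than 2-fold apart.

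Ccr7 carriers differed widely among themselves. Their Ccr7 counts were 31, 21, 7, 4, 2, 2 and 1 UMIs, and their UMIs of 42 mature dendritic cell genes, Ccr7 and Ccl17 not counted, ran from 3.99 to 57.2 per 1000 (median 12.2). The medians were 4.34 in Xcr1 carriers, 3.02 in Cd209a carriers and 5.56 in members with none of the 3 genes. The 3 carriers with 31, 21 and 7 Ccr7 UMIs held 57.2, 51.6 and 34.3 mature gene UMIs per 1000, all above the highest of the Xcr1 carriers, 9.24, and of the Cd209a carriers, 6.22. These 3 held every Ccl5 UMI of the members, 17, 120 and 3, and Ccl17 UMIs, 7, 4 and 13. Samsn1, a signalling adaptor, had 8, 8 and 12 UMIs in them. Ccl5 and Samsn1 are among the 42 mature genes, so their UMIs are part of the values above. In the carrier with 21 Ccr7 UMIs, Ccl5 made up 120 of the 219 mature gene UMIs. The other 4 held no Ccl5 or Ccl17, and instead 8, 8, 7 and 3 UMIs of Il1r2, the decoy receptor for interleukin 1, which the first 3 lacked. The 4 with Il1r2 held more cDC2 than cDC1 UMIs, 4.91 to 6.75 per 1000 against 0.675 to 1.53. Of the first 3, those with 31 and 21 Ccr7 UMIs held more cDC1 UMIs, 7.87 and 5.65 per 1000 against 0.715 and 0.706, and the one with 7 held more cDC2 UMIs, 6.65 against 1.02.

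**Figure D2:**
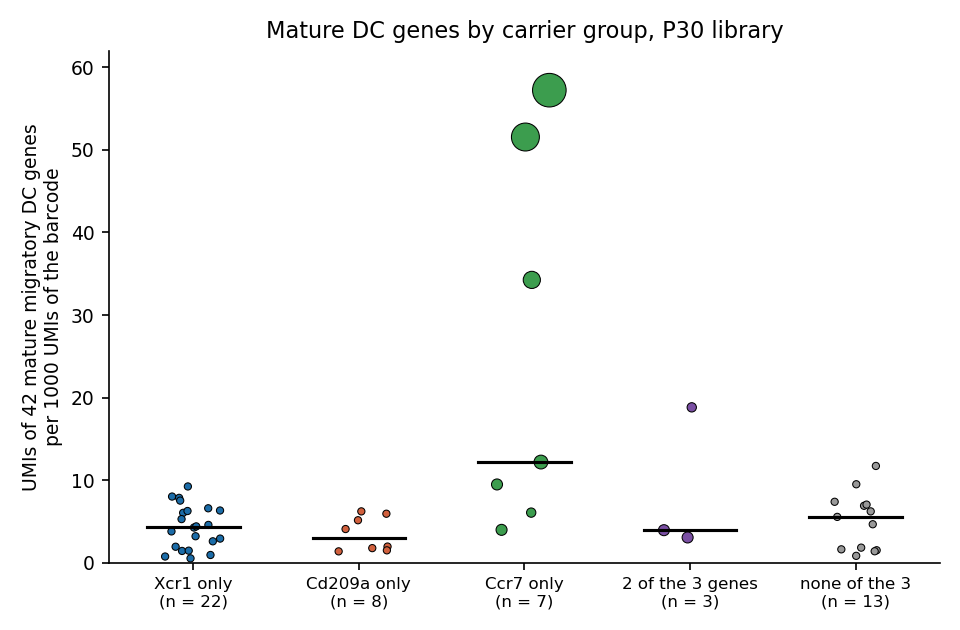
UMIs of 42 mature dendritic cell genes per 1000 UMIs of each P30 dendritic cell barcode by the gene it carried, with a larger circle for more Ccr7 UMIs and a line at the group median. The 3 Ccr7 carriers with 31, 21 and 7 Ccr7 UMIs lie at 57.2, 51.6 and 34.3, and the barcode with Xcr1 and Ccr7 at 18.8.

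Against the 30 Xcr1 and Cd209a carriers together, Ccr7 carriers had 92 of 1414 measured genes called higher (6.51%) and 57 lower (4.03%). Of 16 measured mature genes 12 were called higher and none lower, with a median log2 ratio of 2.32 against −0.05 over all genes. They include the chemokine genes Ccl5, at 140 UMIs against 0 (log2 ratio at least 7.82), and Ccl22, at 19 UMIs against 10 (log2 ratio 3.20, 2.02 to 4.47). Il12b, the p40 subunit of interleukins 12 and 23, had 15 UMIs in 2 Ccr7 carriers, 11 and 4, against 3 UMIs in 2 Xcr1 carriers. The most Il12b, 21 UMIs, was in the barcode with 3 Xcr1 UMIs and 1 Ccr7 UMI, which also held 13 Ccl22 UMIs and 12 Mki67 UMIs. Serpinb9, an inhibitor of granzyme B, had 8 UMIs in 5 of 7 against 3 UMIs in 3 of 30. The 17 UMIs of H2-M2, a class I relative, lay in 1 barcode. Fscn1, the actin-bundling gene often used to mark mature dendritic cells, had 0 UMIs in all 60 members. Of the deepest Ccr7 carrier's UMIs 120 were Ccl5, and without the deepest barcode of each group 85 genes were higher and 37 lower.

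Other lists also held called genes, as sums over these 7 unlike barcodes. Of 10 measured transcription factors 6 were called higher and none lower: Nr4a3 (29 UMIs in 5 of 7 against 18 in 8 of 30), Etv3, Id2, Klf4, Rel and Tcf4. Nr4a3 did not follow the order of Ccr7 counts, with 3, 0 and 14 UMIs in the carriers with 31, 21 and 7 Ccr7 UMIs and up to 7 in the other 4. Of 16 measured immediate early genes 9 were called lower and 1, Klf4, higher, which includes Fos at 1 UMI against 140 (log2 ratio −4.86, −10.2 to −2.35), Jun, Egr1 and Dusp1. Within the class II list, Ctss, Ctsh and Ifi30, which process antigen, were called higher, and H2-DMa and H2-DMb1, which load peptide, lower, with H2-DMb1 at 1 UMI against 44 (log2 ratio −3.19, −8.52 to −0.63). H2-DMb1 was close to its copy H2-DMb2, and how reads shared by copies were assigned is not given. Cell cycle genes had 4 of 12 called lower, Top2a, Cenpe, Tubb5 and Hmgb2, and none higher. Of the 30 barcodes compared with, 22 were Xcr1 carriers, while 5 of 7 Ccr7 carriers held more cDC2 than cDC1 UMIs. Ctss, Ifi30 and Klf4 were also called higher, and Top2a and Tubb5 lower, in Cd209a than in Xcr1 carriers. The part of this mix in the calls was not tested. Cenpe, Tubb5, Atf3 and Lyz2 were no longer called without the deepest barcode of each group (log2 ratios −0.71, −1.39, −1.92 and −0.98). The interferon-inducible chemokine gene Cxcl10 had 9 UMIs in 2 Ccr7 carriers against 2 UMIs in 30 barcodes, and interferon response genes ran from 1.41 to 17.3 UMIs per 1000 among the Ccr7 carriers. Median-of-ratios scaling gave 108 higher and 38 lower in place of 92 and 57.

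**Figure D3:**
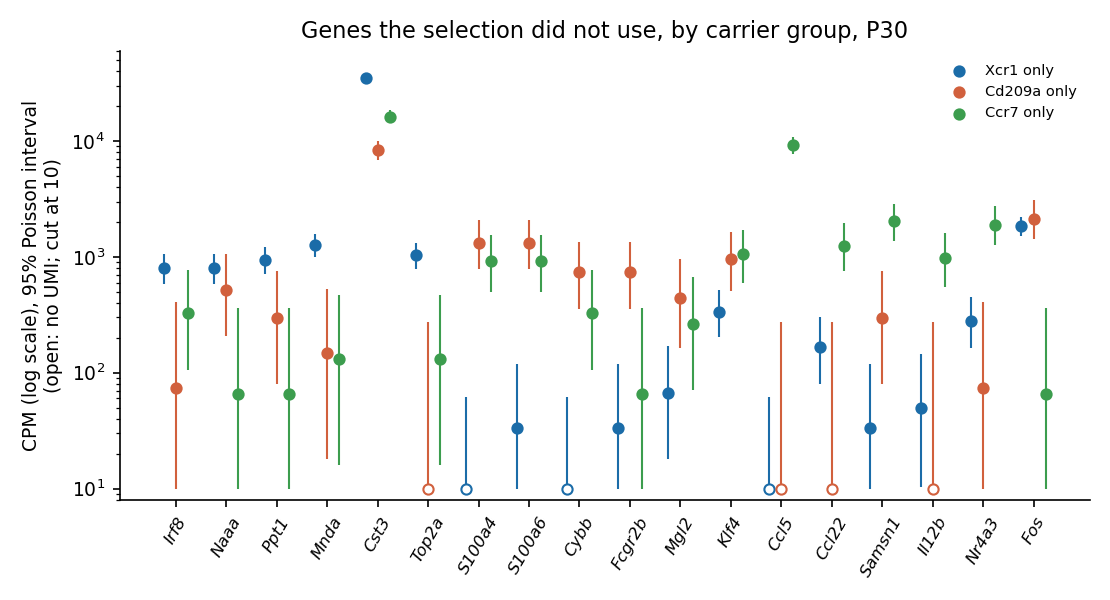
CPM on a log scale of 18 genes that the selection did not name (Mnda is a close copy of Ifi205, which it did), in Xcr1 only (22), Cd209a only (8) and Ccr7 only (7) barcodes of the P30 library, with 95% Poisson intervals cut at 10 CPM and open circles for no UMI. Irf8 and Mnda are highest in Xcr1 carriers, S100a4 and Cybb have no UMI there, and Ccl5 has UMIs only in Ccr7 carriers.

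Compared with class II macrophages of the same library, P30 dendritic cells had 285 of 5029 measured genes called higher (5.67%) and 457 lower (9.09%), and median-of-ratios scaling, which took the median of −0.16 over genes with UMIs in both groups off every log2 ratio, gave 372 and 373. The C1q and class II limits formed these groups, so the values describe how the members differ from their nearest neighbours. Of 15 measured cDC1 genes 12 were higher and 1, the scavenger receptor Cd36, lower, with a median log2 ratio of 2.55 against −0.17 over all genes. Sept3 had 23 UMIs in 15 of 53 members and 0 in 121 macrophages, Cd24a 30 UMIs in 22 against 2 in 2, and Itgae, the integrin CD103, 19 UMIs in 11 against 1. Irf8 was 515 against 123 CPM (log2 ratio 2.06, 1.47 to 2.68) and Batf3 215 against 48.6 CPM (2.15, 1.19 to 3.16). Of 11 measured genes shared by dendritic cells 8 were higher and none lower, which includes Dpp4, the peptidase CD26, at 19 UMIs in 15 against 1, and Amica1 at 39 UMIs in 20 against 2. Irf8 and Batf3 are in both lists and were counted in each. Tbc1d4, a regulator of vesicle traffic, headed the ranked genes with 91 UMIs in 30 members and 7 in 6 macrophages (log2 ratio 4.95, 3.84 to 6.30). Tbc1d4 is also 1 of the mature genes. The tight junction gene Cldn1 had 19 UMIs in 13 members and 0 in macrophages, and the lectin gene Klrb1b 35 UMIs in 22 against 2.

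Of 17 measured cDC2 genes 6 were lower than in macrophages, among them Sirpa, Itgam and Fcer1g, and 1, Tnip3, higher. This holds for the members pooled, and their carriers differed. The cDC2 list summed to 1.012 UMIs per 1000 in Xcr1 carriers, 3.797 in Ccr7 carriers and 5.599 in Cd209a carriers, against 4.232 in macrophages. The part of the mix of carriers in these calls was not tested. Of 28 measured mature genes 14 were higher in the members and 1, Cd63, lower. These are sums, and the 7 Ccr7 carriers held 420 of the 981 mature gene UMIs. The medians per barcode were alike, 4.66 per 1000 in members and 4.69 in macrophages. Summed, Xcr1 carriers were at 4.30 and Cd209a carriers at 3.61, against 4.82 in macrophages. Ccl22 had 45 UMIs in 13 members and 3 in macrophages (log2 ratio 5.15, 3.51 to 7.48) and Il12b 39 UMIs in 5 members and 2 in macrophages, with 21 of the 39 in 1 barcode. The checkpoint genes Cd274, Havcr2 and Btla and the co-stimulatory Cd40 were higher, 4 of 13 measured, and none was lower, while Cd86 was 177 CPM against 266 CPM and Cd83 1029 against 1413, each less than 2-fold apart. Csf2rb and Csf2rb2, receptor chains for GM-CSF, were higher, and Csf1r lower with 3 UMIs against 158 (log2 ratio −4.47, −6.77 to −2.90). Il1b, a cytokine both kinds of cell make, was at 2681 and 2320 CPM (log2 ratio 0.21, 0.02 to 0.39).

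Of 16 measured genes of the MHC class II pathway 2 were higher, 6 lower and 8 neither. H2-Ob and H2-DMb2, parts of the complexes that control peptide loading, were higher in dendritic cells, with 14 UMIs in 14 members against 2 (log2 ratio 4.05, 1.93 to 7.23) and 22 UMIs in 16 members against 8 (2.70, 1.48 to 4.08), though reads of H2-DMb2 may be shared with H2-DMb1, which was not called (0.81, 0.35 to 1.27). The 6 list genes called lower were all lysosomal proteases, Ctss, Ctsl, Ctsb, Ctsd, Ctsc and Lgmn. Ctss was 1168 against 3701 CPM (log2 ratio −1.66, −1.92 to −1.42), and Lgmn 38.4 against 515 CPM (−3.75, −5.39 to −2.49). Cd74 was at 8365 and 7985 CPM (log2 ratio 0.07, −0.04 to 0.17), and H2-DMa was 561 against 437 CPM (0.36, −0.07 to 0.78). H2-Aa, H2-Ab1 and H2-Eb1, which the selection used, were at 6260, 11768 and 8803 CPM in members and at 5013, 6753 and 6170 CPM in macrophages.

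Lower in dendritic cells were the tools of phagocytes. Of 23 measured lysosome and phagocytosis genes 19 were lower and none higher (median log2 ratio −2.11), of 19 macrophage genes 18 and none (−2.88), and of 10 Fc and complement receptor genes 7 and none (−2.03). Lyz2, lysozyme, was 553 against 5104 CPM (log2 ratio −3.21, −3.57 to −2.86), and Maf, a macrophage factor, had 1 UMI against 259. Of 16 measured chemokine genes 10 were lower, and Ccl5 and Ccl22 higher. Cxcl2, which draws neutrophils, had 47 UMIs in 7 members, 25 of them in 1 barcode, and 2563 UMIs in 108 of 121 macrophages. Ccl7 had 0 UMIs against 211 and Ccl3 3 against 365, while all 10 UMIs of Ccl12 in members lay in 1 barcode. The matrix protease Mmp13 had 276 UMIs in 50 macrophages and 0 in members (log2 ratio at most −5.28). Interferon response genes were lower for 10 of 22 and higher for none, with Ifi27l2a at 422 against 1643 CPM and Irf7 at 1 UMI against 30. Pattern recognition genes were lower for 7 of 15 and higher for none. Interstitial markers beyond the 4 of the selection summed to 4.29 UMIs per 1000 in members and 2.91 in macrophages, with Lum and Prg4 called higher in members. Their part in the results was not tested, and without the 2 members rich in macrophage genes 268 genes were higher and 469 lower.

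**Figure D4:**
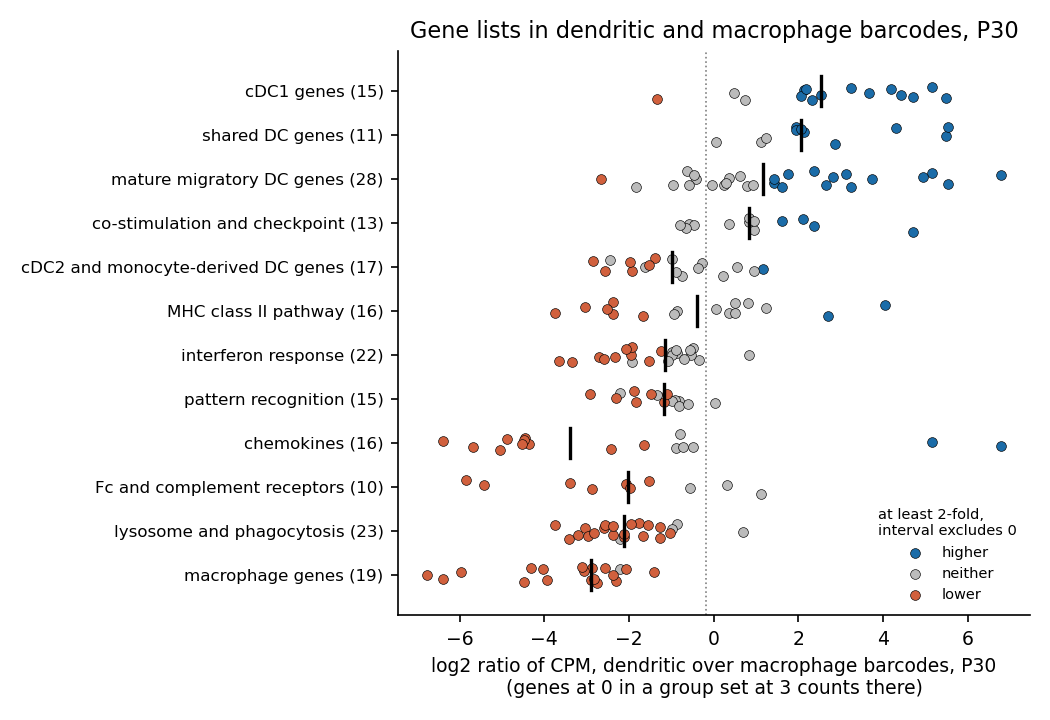
Log2 ratio of CPM in 53 dendritic over 121 macrophage barcodes of the P30 library for the measured genes of 12 lists, 1 circle per gene, with genes at 0 in a group set at 3 counts, a bar at each list's median and a dotted line at the median of all genes (−0.17). The cDC1 and shared dendritic cell genes lie to the right with medians of 2.55 and 2.06, and the macrophage and chemokine genes to the left at −2.88 and −3.39.

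The 7 P7 members against 6 P7 macrophages gave 733 measured genes, 90 higher (12.3%) and 98 lower (13.4%). As at P30, the C1q and class II limits formed these groups. Macrophage genes were lower for 8 of 9 and lysosome genes for 12 of 15, with none higher in either list. The dendritic cell lists were mixed at this age: cDC1 genes had 1 higher and 1 lower of 2 measured, cDC2 genes 2 higher and 3 lower of 6, and mature genes 0 higher and 2 lower of 4. Apoe had 0 UMIs against 222 and Mrc1 0 against 33. Tmsb10, an actin-binding peptide gene, had 44 UMIs in 7 of 7 members and 3 UMIs in 2 of 6 macrophages (log2 ratio 3.88, 2.24 to 6.21), and at P30 it was 2427 against 392 CPM. Of 8 measured cell cycle genes 7 were higher and none lower, such as Mki67 at 28 UMIs in 5 members against 1 UMI (log2 ratio 4.81, 2.22 to 10.2). These 5 members included both barcodes of the near-identical pair. With macrophages of at least 10 C1q UMIs 53 genes were lower, and without the 3 deepest barcodes of each group 32 were higher and 41 lower.

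Mki67 or Top2a, genes of cell division, had a UMI in 6 of 7 members at P7 (85.7%, 42.1 to 99.6%) and 23 of 53 at P30 (43.4%, 29.8 to 57.7%), against 2 of 6 and 30 of 121 macrophages (24.8%, 17.4 to 33.5%). In interstitial barcodes the shares were 10.5% and 3.23%. Thinned to 500 UMIs, the shares were 62.1% and 25.0% in members, 6.04% and 14.9% in macrophages, against 5.78% in P7 interstitial barcodes. The 6 P7 members with a UMI included both barcodes of the near-identical pair, with 2 and 8 Mki67 UMIs. They also included the member with B cell markers, with 2 Top2a UMIs, so the P7 shares may count fewer separate dendritic cells. UMIs of 23 cell cycle genes ran from 2.11 to 24.4 per 1000 at P7 (median 15.4) and from 0 to 21.8 at P30 (median 2.71), so the ages overlapped. At P30 the intervals of the Mki67 or Top2a share overlapped between members and macrophages. For the 23 genes the medians per barcode were 2.71 per 1000 in members and 1.73 in macrophages. Their sums were 6.08 and 6.03 per 1000, and of 22 measured 0 were called higher and 2 lower. At P30, 13 of 22 Xcr1 carriers held a Mki67 or Top2a UMI, 2 of 8 Cd209a carriers, 3 of 7 Ccr7 carriers, 3 of 3 with a pair of the genes and 2 of 13 with none. The Xcr1 carriers were deeper, and thinned to 500 UMIs the shares were 35.0% in Xcr1 and 12.4% in Cd209a carriers, while the medians of the whole list were 3.37 and 3.19 per 1000. Top2a had 62 UMIs in 9 Xcr1 carriers and 0 in Cd209a carriers (log2 ratio at least 2.22), though the Cd209a carriers did hold Mki67, 4 UMIs in 2 barcodes. Over the whole cell cycle list 3 of 11 measured genes, Top2a, Tubb5 and Tuba1b, were higher in Xcr1 than in Cd209a carriers and none lower.

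**Figure D5:**
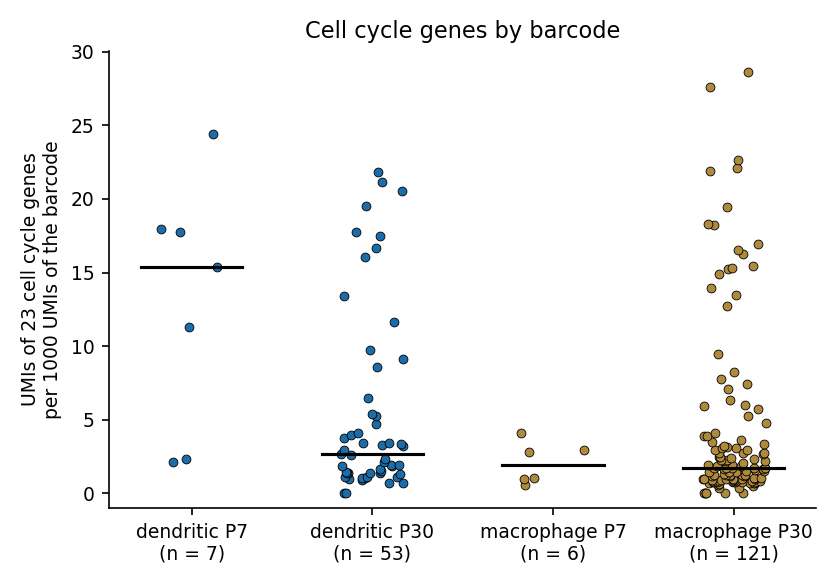
UMIs of 23 cell cycle genes per 1000 UMIs of each barcode in dendritic and class II macrophage barcodes at P7 and P30, with a line at the median. The medians are 15.4 in 7 P7 and 2.71 in 53 P30 dendritic barcodes and 1.92 and 1.73 in macrophage barcodes, and points of all 4 groups overlap.

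Between the ages, 60 of 2298 measured genes were called higher at P30 (2.61%) and 175 lower (7.62%), and median-of-ratios scaling, which took the median of −0.15 over genes with UMIs at both ages off every log2 ratio, gave 92 and 140. Of 14 measured cell cycle genes 6 were lower at P30 and none higher (median log2 ratio −1.31 against −0.27 over all genes). Mki67 had 56 UMIs in 20 of 53 P30 members and 28 in 5 of 7 P7 members, 430 and 1430 CPM (log2 ratio −1.73, −2.41 to −1.02), and Hmgb2, a chromatin protein of dividing cells, was 1298 against 3372 CPM (−1.38, −1.80 to −0.94). In interstitial barcodes the log2 ratios were −1.93 for Mki67 and −0.79 for Hmgb2, while in macrophages, with 1 Mki67 UMI at P7, they were 2.89 (Mki67) and 1.24 (Hmgb2). All 4 measured haemoglobin genes were lower at P30, and Hbb-bs went from 1277 to 192 CPM in members and from 2682 to 990 CPM in interstitial barcodes, cells that do not make haemoglobin.

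Higher at P30 were genes of the MHC class I and cross-presentation list, 4 of 21 measured with none lower: B2m, H2-K1, H2-D1 and Psmb9. B2m, the light chain of class I, had 552 UMIs in 51 members against 20 in 6 (log2 ratio 2.05, 1.41 to 2.78), and in interstitial barcodes its log2 ratio was 2.37. H2-K1 was 1068 against 306 CPM in members, and its log2 ratio of 1.80 (0.64 to 3.27) stood beside 4.18 in interstitial barcodes and 1.28 in macrophages. Cst3 was 25410 against 5415 CPM (log2 ratio 2.23, 1.95 to 2.52) and had log2 ratios of 2.36 in interstitial barcodes and 1.22 in macrophages. Immediate early genes were higher for 6 of 17 and lower for none, with Fosb at 1122 against 306 CPM. Some genes moved less or the other way in the comparison cells. Ppt1 had 90 UMIs in 31 members at P30 and 0 at P7 (log2 ratio at least 2.17), with 0.42 in interstitial barcodes and −0.42 in macrophages. Dusp2, a phosphatase of activated leukocytes, had 62 UMIs in 24 members against 1 UMI (3.22, 0.69 to 8.55), with −0.51 in macrophages. Mgl2 and Tnip3, of the cDC2 list, were lower at P30, at 28 UMIs in 15 members against 15 in 2 for Mgl2 (−1.83, −2.79 to −0.82). Of the 15 Mgl2 UMIs at P7, 13 lay in 1 barcode, so this difference rests on that barcode. Differences between these ratios were not tested, and the P7 group contains the pair of near-identical barcodes and the member with B cell markers. Xcr1 alone was carried by 22 of 53 P30 members and by 1 of 7 P7 members. Cst3, Ppt1 and Dusp2 were also called higher in Xcr1 than in Cd209a carriers at P30. The part of the mix of carriers in the age differences was not tested. Without the deepest barcode of each library 38 genes were higher and 127 lower, and Csf2ra was no longer called (log2 ratio 0.85).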

How the data were processed

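Drop-seq UMI counts per gene and barcode, whole numbers deposited by the authors without normalization, were used for 1 library of each age. Per the submitters' processing notes the build was mm10 and Bowtie2 2.2.7 was among the tools. The counting tool and annotation are not stated there. Normalized tables were not used, and no doublet caller was run.

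Counts were summed over the barcodes of a group and given as CPM with exact Poisson intervals. Ratios carry exact binomial intervals conditional on the total, at the 95% level. A gene was measured with at least 10 counts in both groups together, and called at 2-fold or more with an interval excluding equal levels. A count of 0 was set at 3 counts. Shares carry exact Clopper-Pearson intervals, and thinned shares are hypergeometric expectations at 500 UMIs. Named genes were, in each direction, up to 15 called genes ranked by the interval bound nearest to equal levels, with a UMI in at least 5 barcodes of the higher group (3 for carriers) and a CPM there of at least 50% of the library's, plus members of the gene lists. Mitochondrial, ribosomal, haemoglobin, unnamed and selection genes were left out of the ranking. The ratio procedure was tested on simulated data. Members and lists were chosen with earlier results of these data known. Alternatives changed the selection limits, scaling, count minimum and barcodes. Computation used Python 3.11.15 with numpy 2.4.6, pandas 2.3.3 and scipy 1.17.1.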

Additional observations from a re-analysis of the deposited data

How the results depend on the processing

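With 1 library per age nothing here rests on biological replicates, and depth limits low genes. In the P7 members a count of 0 was set at 3 UMIs, or 153 CPM. No paired analysis was possible because each age has 1 library. The number of members stayed between 4 and 7 at P7 and between 49 and 59 at P30 under the alternative limits. Thinning moved the share of P30 members with an Xcr1 UMI to 16.4% and with a Cd209a UMI to 9.12%. A minimum of 20 counts gave 50 higher and 57 lower genes in dendritic cells over macrophages at P7, 106 lower at P30 over P7, 18 lower in Xcr1 over Cd209a carriers and 48 higher in Ccr7 carriers. A minimum of 5 gave 267 lower at P30 over P7 and 109 lower in Xcr1 over Cd209a carriers. Over macrophages at P7, requiring 10 C1q UMIs gave 53 lower, and leaving out the 3 deepest barcodes of each group gave 32 higher and 41 lower. At P30 over P7, median-of-ratios scaling gave 92 higher, the mean of each barcode's CPM 106 higher, and leaving out the deepest barcode of each library 38 higher. In Ccr7 carriers the mean CPM gave 92 lower and leaving out the deepest barcodes 37 lower. The median log2 ratio of interferon response genes over macrophages at P7 turned from 2.465 over 3 measured genes to −0.217 with a minimum of 5 counts, which measures more genes. Beyond the count minimum and barcodes left out, the cause was not tested.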
